A study of Mus musculus with 8 samples.

Results

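The genes described here are those of histones, the proteins around which DNA is wound. They were the rows of the count table whose symbol matched Hist1h to Hist4h, H2af, H3f3 or H1f. The 4 pseudogene rows with -ps in their symbol were left out. The table mixes older and current mouse symbols, so a row was also taken when its older RefSeq symbol matched (H2az1, formerly H2afz, or H1f2, formerly Hist1h1c). This gave 86 of 36255 rows, 22 by the printed symbol and 64 through the older symbol only. 69 are cluster genes (6 for H1, 20 for H2A, 18 for H2B, 12 for H3 and 13 for H4) and 17 are variant genes (4 for H1, 10 for H2A and 3 for H3). These still include H2ac14, Hist1h2al and Macroh2a3, annotated as pseudogenes by both GENCODE and RefSeq, and H3f3c, a pseudogene in GENCODE only.

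The study set mouse cells in which Skp1a is knocked out (KO) against cells with floxed, undeleted Skp1a (fl/fl), to ask how their gene expression differs. Skp1a encodes the adaptor that links F-box proteins to the cullin of SCF ubiquitin ligases. The 4 groups were KO embryonic stem (ES) cells, fl/fl ES cells, KO embryoid bodies at day 2 (EBd2, aggregates in which ES cells start to differentiate) and fl/fl EBd2. Each group had 2 libraries, named lots 1, 2 or 12, of poly(A)-selected RNA. The labels give no line, clone, age, Cre driver or induction, and do not say whether lots were separate cultures. A p-value here reflects the spread between lots within groups, pooled over the 4 groups and in part over genes. That spread is perhaps no more than technical error. The tissue field names ES cells for all KO libraries and embryoid bodies for all fl/fl libraries, against the titles, and groups follow the titles.

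Cluster genes sit together in the genome, have no introns as a rule, and are transcribed in S phase, when new DNA must be packaged. Their messages normally end in a short stem-loop bound by SLBP in place of a poly(A) tail, and they are destroyed when replication stops. Variant genes lie singly and as a rule are expressed through the cell cycle as ordinary polyadenylated messages, though H2ax also holds a stem-loop. They supply histones such as H3.3, H2A.Z, H2A.X and macroH2A that are placed at promoters, at DNA breaks or in silent chromatin.

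The stem-loop is shown first because it is the feature that as a rule separates the cluster from the variant messages. The letters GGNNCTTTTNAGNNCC were searched on the sense strand of GENCODE transcripts of the GRCm38 build and read as DNA. The capitals mark the 4 loop bases.
Hist1h2ap: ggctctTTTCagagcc
H3c3: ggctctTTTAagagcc
H2ac20: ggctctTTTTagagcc
H4c3: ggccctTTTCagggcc
H4c9: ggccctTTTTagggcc
H4c2: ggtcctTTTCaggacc
H2ax: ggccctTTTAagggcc
The form printed for Hist1h2ap was found in 26 genes of H1, H2A, H2B and H3. H4 genes had other stems: 7 shared the form of H4c3, 2 that of H4c9 and 2 that of H4c2. The form of H3c3 was found in 6 genes, and those of H2ac20 and H2ax in 1 each. In all, 44 of 69 cluster genes (63.8%) and 1 of 17 variant genes (5.88%) held the motif anywhere in a transcript, against 27 of 21819 other protein-coding genes (0.124%). The 1 variant gene was H2ax, whose protein marks DNA breaks once phosphorylated. Its annotated transcript runs 822 bases past the motif and has no AATAAA in its last 50 bases. Within the last 100 bases of a transcript the motif was found in 22 cluster genes, 0 variant genes and 0 of the 21819 other genes. The poly(A) signal AATAAA stood in the last 50 bases of 21.7% of cluster genes, 58.8% of variant genes and 65.7% of all protein-coding genes. Several cluster genes are annotated with little beyond the coding part, so a missing match says only that these letters are not in the annotated transcript.

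Upstream regions of a pair of cluster genes called lower in KO EBd2 are shown next, H2bc12 because it also holds the octamer, from the RefSeq table of GRCm38.p6, with the CCAAT box, the TATA box as TATAAA and the octamer ATTTGCAT in capitals on either strand. The Hist1h2ap stretch is chr13:21833508-21833725 on the minus strand and stops at the start of its GENCODE transcript. The H2bc12 (formerly Hist1h2bk) stretch is chr13:22035571-22035820 on the plus strand. Each stretch also lies upstream of a gene on the opposite strand, Hist1h2br for Hist1h2ap and H2ac12 for H2bc12. The TATAAA marked for H2bc12 reads on the opposite strand, 198 bases before its start and towards H2ac12. It cannot be assigned to H2bc12 from these letters.
Hist1h2ap: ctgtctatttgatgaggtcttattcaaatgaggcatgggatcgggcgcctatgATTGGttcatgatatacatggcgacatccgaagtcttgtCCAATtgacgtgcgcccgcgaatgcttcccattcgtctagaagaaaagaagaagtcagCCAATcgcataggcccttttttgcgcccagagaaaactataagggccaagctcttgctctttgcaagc
H2bc12: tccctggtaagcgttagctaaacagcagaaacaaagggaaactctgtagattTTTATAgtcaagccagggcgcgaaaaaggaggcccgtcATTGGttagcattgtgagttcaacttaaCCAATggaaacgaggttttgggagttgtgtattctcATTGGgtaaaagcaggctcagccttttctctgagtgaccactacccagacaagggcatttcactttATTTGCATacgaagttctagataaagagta
Each window of 250 bases before to 50 after a RefSeq start was searched on both strands. CCAAT was found for 53 of the 62 cluster genes with a RefSeq promoter (85.5%) and for 10 of 15 variant genes (66.7%). Of all 27025 genes with a promoter, 41.1% had CCAAT. It was found for every H1, H2A, H2B and H3 cluster gene matched, and for 3 of 12 H4 genes. TATAAA was found for 56.5% of cluster genes, 6.67% of variant genes and 15.7% of all genes with a promoter. The octamer was found for 7 of 18 H2A and 7 of 16 H2B cluster genes, against 1.97% of all genes with a promoter. It was found for none of the matched H1, H3 and H4 cluster genes. Some H2A and H2B genes start close together on opposite strands, such as H2ac12 and H2bc12. The same letters can thus count for both genes of a pair. These matches describe letters in a window and not the binding of a factor.

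Libraries held 21545868 to 23343471 counts in ES cells and 7858452 to 10055667 in EBd2. Skp1a itself had 369 and 361 CPM (counts scaled to library size with TMM factors) in KO ES cells, against 420.2 and 430.3 CPM in fl/fl ES cells, and 286 and 289.6 CPM in KO EBd2, against 401 and 389 CPM in fl/fl EBd2. It was thus lower in every library labelled KO, though a count over the whole gene cannot show whether a deleted exon is missing. Markers of day 2 epiblast (Fgf5, Otx2, Pou3f1 and Dnmt3b) summed to 306 and 321 CPM in KO EBd2 and to 1668 and 1785 CPM in fl/fl EBd2. All 4 were called higher in fl/fl EBd2 than in fl/fl ES cells, as the titles have the stages. Of 5 fibroblast feeder markers (Col1a1, Col1a2, Col3a1, Thy1 and Postn) none was at 0, and they summed to 521 and 581 CPM in KO ES cells and 505 and 474 CPM in fl/fl ES cells.

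Histone messages were measured mostly through the variants. The 17 variant genes took 0.175% to 0.233% of all counts in a library, and the 69 cluster genes took 0.0115% to 0.0469%. Among the cluster genes, 1 gene stood above all others: Hist1h2ap, an H2A gene of a single exon at chr13:21833026-21833507 on the minus strand. It held 79.8% and 79.2% of the summed cluster counts in KO ES cells, 76.3% and 76.7% in fl/fl ES cells, 58.1% and 65.2% in KO EBd2, and 80.1% and 89.3% in fl/fl EBd2. Per length, Hist1h2ap averaged 445 CPM per kb of annotated transcript in KO ES cells, 603 in fl/fl ES cells, 135 in KO EBd2 and 724 in fl/fl EBd2. On the same scale H3f3a, a gene for H3.3, averaged 422 in KO ES cells, 447 in fl/fl ES cells, 426 in KO EBd2 and 617 in fl/fl EBd2. The other cluster genes named here were far lower per length: H1f2 averaged 9.38 CPM per kb in fl/fl ES cells, and H2bc4, an H2B gene, 7.36.

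Of the 86 genes, 3 (H2bc1, H2ab1 and H2ab2) had 0 counts in all libraries and 10 had under 10 counts over all libraries together. 56 genes passed the filter on low counts, 45 cluster and 11 variant, and 30 did not. Cluster genes also resemble each other: 55% of the 50-base stretches of the median cluster gene, and 9.7% of those of the median variant gene, occur in another gene's transcripts as well. For Hist1h2ap this share was 93.1%, for Hist1h2ao it was 93.5%, and the sources used here do not say how reads matching several genes were assigned. For the neighbouring H2A genes H2ac18 and H2ac19 it was 100%, with other genes of any kind, so the value of each by itself is uncertain. Poly(A) selection adds another limit: for a cluster gene, only the part of its message that the beads captured was counted. A change in that part and a change in the whole message cannot be told apart. The same limit may hold for the variant H2ax, whose annotated transcript has the stem-loop and no AATAAA in its last 50 bases. In these bulk samples, fewer cells that make a message and less of it per cell also cannot be told apart.

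**Figure D1:**
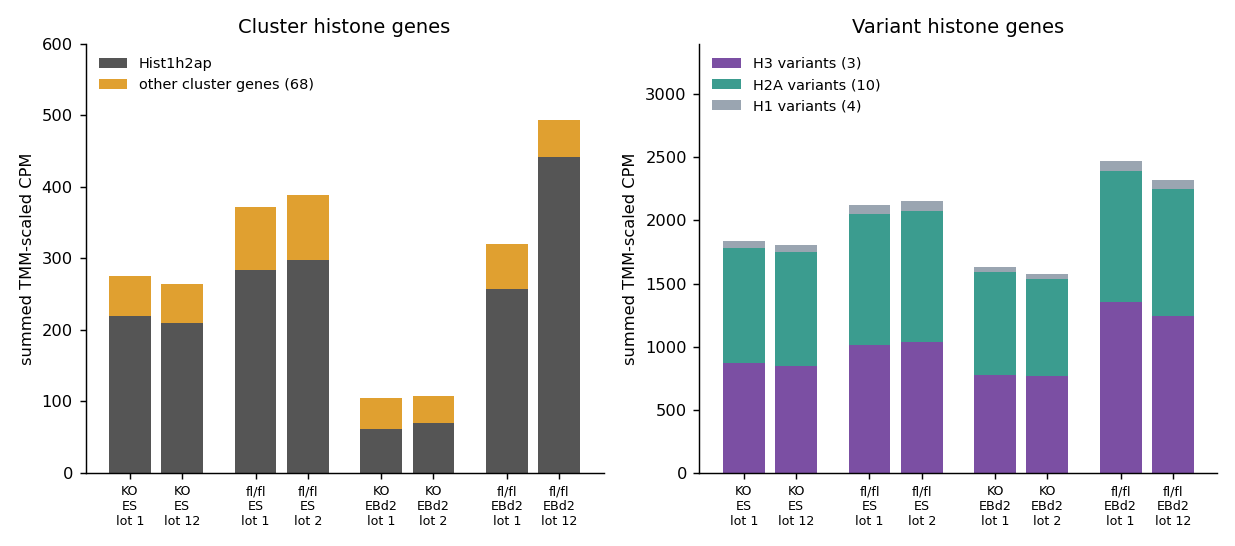
Summed TMM-scaled CPM in each of the 8 libraries (bars, by genotype, stage and lot), for cluster genes on the left, split into Hist1h2ap and the other 68 genes, and for variant genes on the right, split into H3, H2A and H1. KO EBd2 libraries have the lowest cluster sums, at 104 and 107 CPM, and the 2 fl/fl EBd2 libraries differ from each other, at 321 and 494 CPM.

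In ES cells, histone messages were lower in KO cells than in fl/fl cells for every gene called in either class. A gene was called when its adjusted p from the edgeR quasi-likelihood test, with Benjamini-Hochberg adjustment over 16542 genes, was under 0.05. Of 45 cluster genes tested, 0 were called higher and 10 lower, and of all genes tested, 23.7% were called, 10.9% higher and 12.8% lower. Of the calls over all genes, 46.0% were higher, or 72.1% when libraries were scaled by their size alone, which left the cluster counts as they were. The 22.2% of cluster genes called was close to the share of all genes, but all of these calls were lower. 9 of the 10 were at least 2-fold lower, and 0.187% of all genes were both called and at least 2-fold lower. Genes with few counts can pass the test only with a large fold change, and these shares were not compared at equal counts. The median fitted log2 fold change was -1.04 over the cluster genes tested and 0.0043 over all genes. This count rested on single libraries. It was 16 without KO EBd2 lot 1 or without KO EBd2 lot 2, 3 without either KO ES-cell library, and 2 without either fl/fl ES-cell library. The call of H2aw (formerly Hist3h2a, an H2A gene at another locus) was the 1 among the 10 kept in every alternative that was run.

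H2aw had 2.23 and 2.13 CPM in KO ES cells, against 4.81 and 5.03 CPM in fl/fl ES cells, a log2 fold change of -1.17 ± 0.201 (SE, n = 2 libraries each; edgeR adjusted p = 0.00195). H2bu2, an H2B gene next to it on chromosome 11, had 0.624 and 0.649 CPM in KO ES cells, against 2.16 and 2.00 CPM in fl/fl ES cells (log2 fold change -1.70 ± 0.363, edgeR adjusted p = 0.00656). In both genes the KO libraries lay below the fl/fl libraries without overlap. The H2bu2 call was lost without KO lot 1 or without fl/fl lot 1. The H3 genes H3c3, H3c6 and H3c8 were also called, with log2 fold changes of -0.89 ± 0.255, -1.14 ± 0.298 and -2.47 ± 0.541. H3c3 lost its call without any 1 of the 4 ES-cell libraries. H3c6 lost it without KO lot 1 or without fl/fl lot 1 or lot 2, and H3c8 without KO lot 12. The other calls were of genes with few counts. They were H1f4 (linker histone H1, -1.76 ± 0.518), the H2A genes H2ac6 (-1.98 ± 0.611), H2ac13 (-3.05 ± 0.971) and Hist1h2ao, and the H2B gene H2bc21 (-1.07 ± 0.327). Without any 1 of the 4 ES-cell libraries, H1f4, H2ac6, Hist1h2ao and H2bc21 lost their call. H2ac6 and H2ac13 lost theirs without either fl/fl EBd2 library as well, and H2ac13 without KO ES-cell lot 12 or fl/fl ES-cell lot 1. Hist1h2ao had 0 counts in both KO ES-cell libraries and 11 in the fl/fl ES-cell libraries together, so it was at least 3.78-fold lower in KO ES cells by a floor of 3 counts over the group.

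Hist1h2ap had 219.9 and 209 CPM in KO ES cells, against 284 and 298 CPM in fl/fl ES cells. The groups did not overlap, but the difference (log2 fold change -0.44 ± 0.157) did not pass the test (edgeR adjusted p = 0.0665). When fl/fl EBd2 lot 1 or lot 12 was left out, Hist1h2ap passed with edgeR adjusted p of 0.000193 and 0.000183 and a log2 fold change of -0.43, with SE of 0.0454 and 0.0452 in place of 0.157. Without Hist1h2ap, the other 68 cluster genes summed to 55.5 and 54.9 CPM in KO ES cells, against 88.1 and 90.5 CPM in fl/fl ES cells. By class, KO ES cells were lower in each sum. Cluster H3 genes summed to 6.69 and 6.67 CPM in KO ES cells, against 15.1 and 14.4 CPM in fl/fl ES cells. The 4 other classes had mean KO levels over mean fl/fl levels of 0.589 (H4), 0.669 (H2B), 0.727 (H2A) and 0.771 (H1).

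Among variant genes the fold changes between the ES cell groups were smaller, but a larger share of them passed the test than of cluster genes (22.2%). Their SE, at most 0.113, were below those of the cluster genes called. None of the 11 tested was called higher and 5 (45.5%) were called lower, against 10.9% and 12.8% of all genes. Their median log2 fold change was -0.20. Genes with many counts can pass the test with a small fold change, and these shares were not compared at equal counts. H2ax had 179 and 184 CPM in KO ES cells, against 272 and 272 CPM in fl/fl ES cells (log2 fold change -0.58 ± 0.0317, edgeR adjusted p = 3.5e-06). H3f3b, the other main gene for H3.3, had 434 and 429 CPM in KO ES cells, against 562 and 571 CPM in fl/fl ES cells (log2 fold change -0.39 ± 0.0381, edgeR adjusted p = 7.04e-05). Both genes were lower in each KO library than in either fl/fl library. H1f0, a linker histone found in cells that leave the cycle, had a log2 fold change of -0.54 ± 0.0695, and H2aj, an H2A variant, one of -0.27 ± 0.0439. Macroh2a1, which encodes a macroH2A that marks silent chromatin, had one of -0.17 ± 0.05 (edgeR adjusted p = 0.033), and lost its call without any 1 of the 4 ES-cell libraries. H3f3a (-0.08 ± 0.0452), H2az1 (-0.03 ± 0.0418), H2az2 (0.04 ± 0.0544), H1f10 (-0.20 ± 0.0707), Macroh2a2 (-0.13 ± 0.0792) and H3f3c (-0.25 ± 0.113) did not pass.

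**Figure D2:**
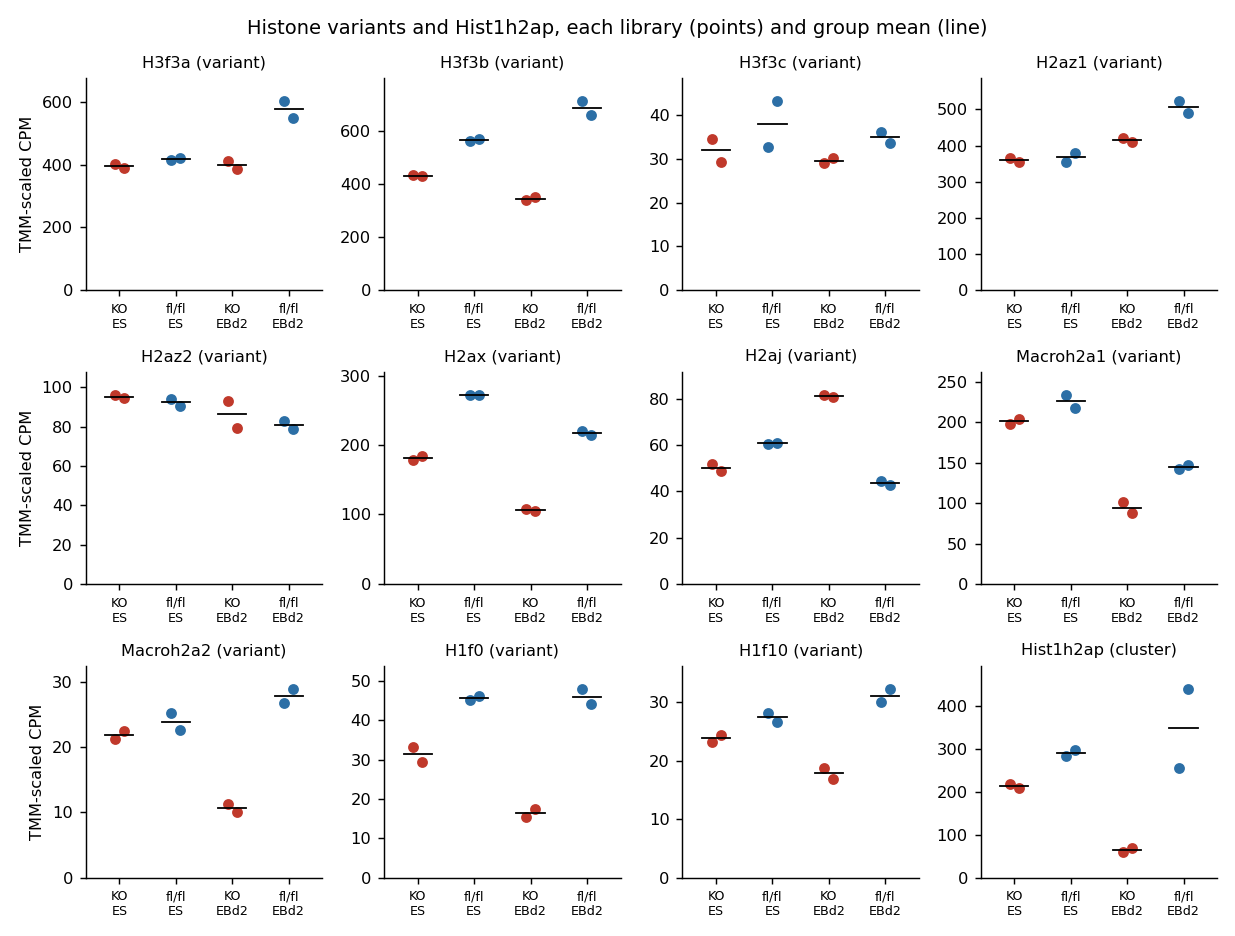
TMM-scaled CPM of the 11 variant genes tested and of Hist1h2ap in every library (points) with the mean of each group (line), KO in red and fl/fl in blue, on a linear axis from 0. H2ax, H3f3b and H1f0 are lower in KO at both stages, H2aj is lower in KO ES cells and higher in KO EBd2, and the 2 fl/fl EBd2 points of Hist1h2ap lie far apart.

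In EBd2 Hist1h2ap, the cluster gene with the most counts, was far lower in KO. It had 60.55 and 69.7 CPM in KO EBd2, against 257 and 441 CPM in fl/fl EBd2, a log2 fold change of -2.43 ± 0.202 (edgeR adjusted p = 9.68e-07). Both KO libraries were below both fl/fl libraries, and the fl/fl libraries differed by more than the KO libraries did. Without fl/fl lot 12 the log2 fold change was -1.97 and without fl/fl lot 1 it was -2.76, and the gene was called in both. All cluster genes together summed to 104 and 107 CPM in KO EBd2, against 321 and 494 CPM in fl/fl EBd2. Without Hist1h2ap the sums were 43.6 and 37.2 CPM in KO EBd2, against 63.7 and 52.9 CPM in fl/fl EBd2, a ratio of means of 0.693, where that of all cluster genes was 0.259.

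Of the 45 cluster genes tested in EBd2, 4 were called higher and 17 lower in KO, and of all genes 62.2% were called, 30.7% higher and 31.5% lower. Of the calls over all genes 49.3% were higher, or 67.9% under scaling by library size alone, which shifted the median of all genes by 0.227 (log2). The share of cluster genes called lower, 37.8%, was thus close to that of all genes. All 17 were at least 2-fold lower, and 6.17% of all genes were both called and at least 2-fold lower, again not compared at equal counts. The median log2 fold change was -1.26 over the cluster genes tested, or -1.20 with genes at 0 counts in a group set to their bound, and 0.004 over all genes. Of the 21 calls, 9 were kept in every alternative that gave the gene a value (H2ac11, H2ac6, H2aw, H2bu2, H3c3, H3c6, H4c2, Hist1h2ao and Hist1h2ap), all of them lower in KO EBd2.

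H2aw had 1.67 and 0.894 CPM in KO EBd2, against 3.10 and 3.23 CPM in fl/fl EBd2 (log2 fold change -1.32 ± 0.305, edgeR adjusted p = 0.00282). H2bu2 had 0.392 and 0.358 CPM in KO EBd2, against 3.10 and 1.5 CPM in fl/fl EBd2 (log2 fold change -2.57 ± 0.504, edgeR adjusted p = 0.000924). The KO libraries lay below the fl/fl libraries in both genes, as they did for H2ac6 (-3.11 ± 0.652), H3c3 (-1.68 ± 0.374) and H3c6 (-1.78 ± 0.459). H2ac11, an H2A gene, had 0 counts in KO EBd2 and 23 in fl/fl EBd2 over both libraries, at least 10.2-fold lower in KO. Hist1h2ao had 0 counts in KO EBd2 and 27 in fl/fl EBd2, at least 11.97-fold lower in KO. H4c2, an H4 gene, had 1 count in KO EBd2 and 17 in fl/fl EBd2 and was 22.6-fold lower in KO (95% interval from counting, 3.54 to 945). The interval covers counting error only. The bounds set the group at 0 to 3 counts and take the count of the other group as exact, so they leave out its counting error. The share of 50-base stretches found in other genes was 78.9% for H2ac11, 93.5% for Hist1h2ao and 75.9% for H4c2, so the level of each by itself is uncertain.

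The other cluster genes called lower in KO EBd2 lost their call in at least 1 alternative. They were H1f4, H2ac10 (-1.96 ± 0.773), H2bc8, H2bc11, H2bc12, H2bc14, Hist1h2bq (-1.56 ± 0.502) and H3c11. In 5 of them the KO EBd2 libraries held 1 to 3 counts together. H2bc11 had 2 counts in KO EBd2 and 24 in fl/fl EBd2, 15.96-fold lower in KO with a 95% interval of 3.96 to 139. H1f4 had 1 and 8 counts, H2bc14 1 and 10, H2bc8 3 and 14, and H3c11 2 and 21, in KO EBd2 and in fl/fl EBd2. For H3c11 the value turned to 3.75 without fl/fl lot 1, which held all 21 of its counts in fl/fl EBd2, and its call was lost without any KO library or fl/fl ES-cell library. H2bc12 had 0.882 and 0 CPM in KO EBd2, against 1.35 and 1.96 CPM in fl/fl EBd2 (log2 fold change -1.96 ± 0.763, edgeR adjusted p = 0.0429), and lost its call without any 1 of 7 libraries, all but KO EBd2 lot 1. For 6 of these genes the single libraries that ended the call were as follows. H1f4 lost it without KO EBd2 lot 2, fl/fl EBd2 lot 1 or either fl/fl ES-cell library, and H2ac10 without any library but KO EBd2 lot 1. Hist1h2bq lost it without KO EBd2 lot 1 or fl/fl EBd2 lot 1, H2bc8 without either of these or either fl/fl ES-cell library, H2bc11 without fl/fl EBd2 lot 1, and H2bc14 without KO EBd2 lot 2.

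The 4 cluster genes called higher in KO EBd2 were H1f2, H3c14, H2ac19 and H4c12. H1f2, a linker histone gene, had 7.15 and 5.90 CPM in KO EBd2, against 3.24 and 4.62 CPM in fl/fl EBd2 (log2 fold change 0.71 ± 0.189, edgeR adjusted p = 0.00668). Its groups did not overlap, and the call was lost without KO lot 1 or without fl/fl lot 1. For the other 3 genes the fl/fl EBd2 libraries held 3 counts or fewer. H2ac19 had 37 counts in KO EBd2 and 0 in fl/fl EBd2 (at least 9.27-fold higher), and lost its call without KO lot 1 or without fl/fl lot 12. Summed with H2ac18, it had 3.13 and 2.06 CPM in KO EBd2, against 2.29 and 1.04 CPM in fl/fl EBd2, and these groups overlapped. H4c12 had 11 counts in KO EBd2 and 0 in fl/fl EBd2 (at least 2.76-fold higher). H3c14, an H3 gene, had 32 and 3 counts in KO EBd2 and in fl/fl EBd2 and was 8.02-fold higher in KO (95% interval from counting, 2.51 to 40.9). Both lost their call without fl/fl lot 12.

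**Figure D3:**
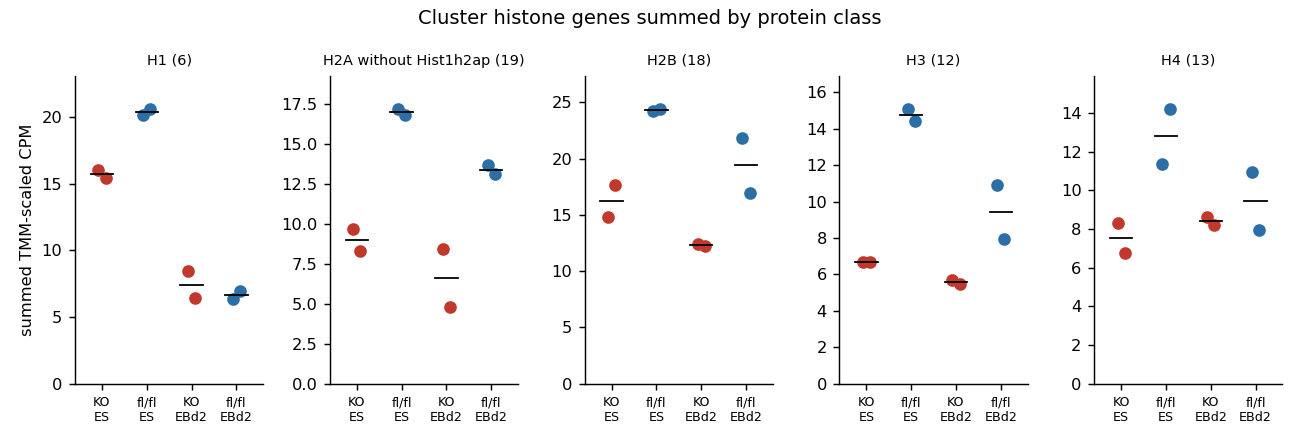
Summed TMM-scaled CPM of the cluster genes of each protein class in every library (points) with group means (lines), H2A without Hist1h2ap, on linear axes from 0. In ES cells the KO points lie below the fl/fl points in all 5 classes, and in EBd2 they do so for H2A, H2B and H3.

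By class, cluster H2B genes summed to 12.4 and 12.3 CPM in KO EBd2, against 21.9 and 17.0 CPM in fl/fl EBd2. Cluster H3 genes summed to 5.68 and 5.46 CPM in KO EBd2, against 10.9 and 7.96 CPM in fl/fl EBd2. H4 sums, at 8.62 and 8.23 CPM in KO EBd2, fell between the fl/fl EBd2 values of 10.9 and 7.96 CPM. H1 sums were 8.43 and 6.44 CPM in KO EBd2 and 6.34 and 6.92 CPM in fl/fl EBd2, and they overlapped as well.

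Cluster genes were also split by where their annotated transcript ends. In the 22 genes whose transcript ends within 100 bases of the stem-loop, as the mature cluster message does, the sum was 68.2 and 75.7 CPM in KO EBd2, against 277 and 453 CPM in fl/fl EBd2, and Hist1h2ap made up most of it. In the 22 genes annotated to run over 100 bases past the stem-loop, as a polyadenylated form would, the sum was 21.9 and 16.7 CPM in KO EBd2, against 25.2 and 23.4 CPM in fl/fl EBd2. Of 15 tested genes in each set, 1 was called higher and 8 lower in the first, and 2 higher and 6 lower in the second. The shares called, 60.0% and 53.3%, were near or below the 62.2% of all genes. In ES cells the corresponding counts were 0 higher and 2 lower, and 0 higher and 5 lower, or 13.3% and 33.3% called, against 23.7% of all genes. Among the rows whose printed symbol matched without the older names, 15 genes were tested, of which 0 were higher and 4 lower in KO ES cells, and 1 higher and 8 lower in KO EBd2.

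Most variant genes were lower in KO EBd2 as well. 1 of 11 was called higher (9.09%) and 8 lower (72.7%), against 30.7% and 31.5% of all genes, and under scaling by library size alone 2 were called higher and 7 lower. The median log2 fold change was -0.62, and the shares were again not compared at equal counts. H3f3b had 339 and 349 CPM in KO EBd2, against 712 and 661 CPM in fl/fl EBd2 (log2 fold change -0.9958 ± 0.0408, edgeR adjusted p = 3.8e-09). H2ax had 108.5 and 105 CPM in KO EBd2, against 220.1 and 215 CPM in fl/fl EBd2 (log2 fold change -1.03 ± 0.0396, edgeR adjusted p = 2.36e-09). Neither gene's groups overlapped.

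H1f0 had 15.4 and 17.4 CPM in KO EBd2, against 48.0 and 44.1 CPM in fl/fl EBd2 (log2 fold change -1.48 ± 0.0974, edgeR adjusted p = 1.39e-07), the largest fitted fall among the variants tested. Macroh2a2 had 11.3 and 10.1 CPM in KO EBd2, against 26.7 and 29.0 CPM in fl/fl EBd2 (log2 fold change -1.39 ± 0.11, edgeR adjusted p = 6.65e-07). Both genes had groups that did not overlap. The linker histone H1f10 (-0.81 ± 0.0917), Macroh2a1 (-0.62 ± 0.0667) and H3f3a (-0.54 ± 0.0479) were lower too. H2az1, which encodes H2A.Z.1 of active promoters, was called with -0.29 ± 0.0442, a call that was lost when libraries were scaled by their size alone.

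H2aj was the 1 variant called higher. It had 81.7 and 80.7 CPM in KO EBd2, against 44.4 and 42.9 CPM in fl/fl EBd2 (log2 fold change 0.90 ± 0.0559, edgeR adjusted p = 9.18e-08). H2az2 (0.09 ± 0.0706) and H3f3c (-0.24 ± 0.147) did not pass. H3f3a and H3f3b encode the same protein, and H3f3a supplied 54.8% and 52.4% of their joint counts in KO EBd2, against 45.8% and 45.4% in fl/fl EBd2. In ES cells its share was 48.0% and 47.4% in KO and 42.4% and 42.4% in fl/fl. At both stages the KO libraries had the higher share without overlap. H3f3c, a near copy, shares 73.8% of its 50-base stretches with other transcripts, so its own level is uncertain.

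**Figure D4:**
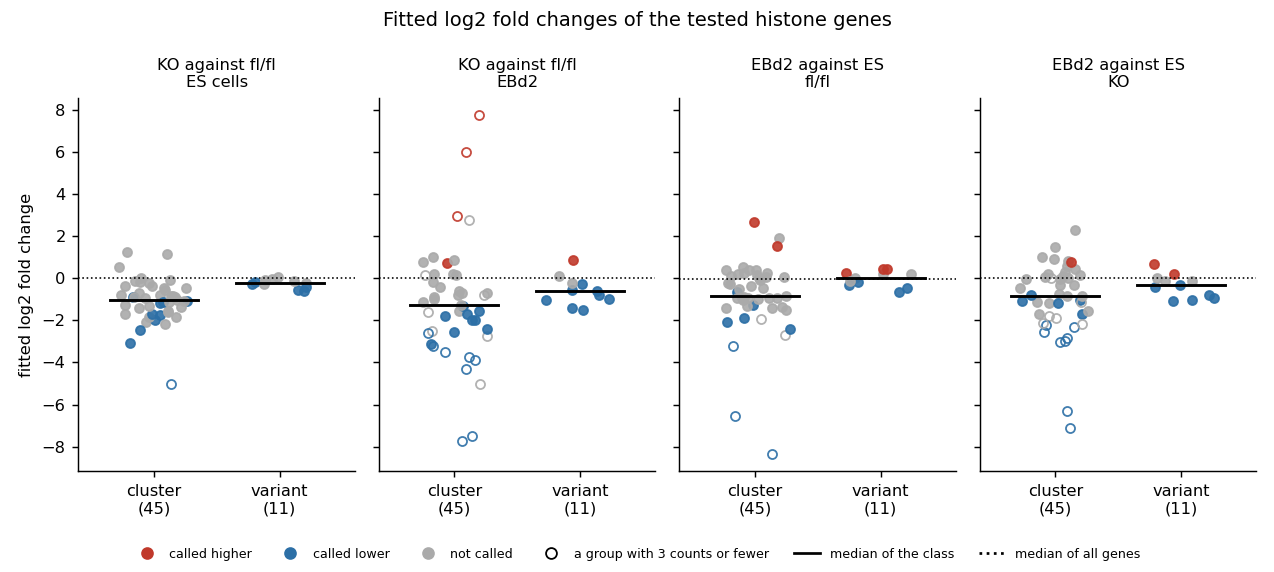
Fitted log2 fold changes of the 45 cluster and 11 variant genes tested in the 4 comparisons, coloured by call, with the class median (line) and the median of all genes (dotted). Open points are genes with 3 counts or fewer in a group, whose fitted value depends on the prior count. The medians of cluster genes lie at -1.04, -1.26, -0.86 and -0.82, below that of all genes in each panel.

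Between stages, most cluster genes did not pass the test in either genotype, and more of those that did were lower in EBd2 than higher. In fl/fl all cluster genes summed to 321 and 494 CPM in EBd2, against 372 and 388 CPM in ES cells, and these groups overlapped. Without Hist1h2ap the sums were 63.7 and 52.9 CPM in fl/fl EBd2, against 88.1 and 90.5 CPM in fl/fl ES cells. These comparisons use the same libraries as those of genotype. In fl/fl, 2 of 45 cluster genes were called higher and 8 lower in EBd2, and of all genes 59% were called, 28.9% higher and 30.1% lower. The 22.2% of cluster genes called, 17.8% lower, were thus below the shares of all genes. The count of 10 was 6 without fl/fl ES-cell lot 1 or without lot 2. H1f2 had 3.24 and 4.62 CPM in fl/fl EBd2, against 14.4 and 14.9 CPM in fl/fl ES cells (log2 fold change -1.88 ± 0.153, edgeR adjusted p = 1.02e-06), and was called in every alternative. H2bc21 (-2.10 ± 0.46), H2ac19, H3c14 and H4c12 were called lower in each alternative that gave them a value, which for H4c12 was 9. H4c12 had 0 counts in fl/fl EBd2 and 32 in fl/fl ES cells, at least 4.01-fold lower, and H3c14 had 3 and 79. H2ac19 had 0 counts in fl/fl EBd2 and 114 in fl/fl ES cells, at least 14.3-fold lower by itself. H2ac18 had a log2 value of 1.92 ± 1.13 and did not pass. Together H2ac18 and H2ac19 had 2.29 and 1.04 CPM in fl/fl EBd2, against 3.73 and 2.39 CPM in fl/fl ES cells, a ratio of means of 0.544. Hist1h4n (-2.38 ± 0.74), H1f3 (-1.26 ± 0.417) and H2aw (-0.63 ± 0.228) were called lower, and Hist1h2ao (2.68 ± 0.58) and H2ac6 (1.56 ± 0.485) higher, and each lost its call in at least 1 alternative. For Hist1h2ao that alternative was the model with lots, and for the other 4 it included leaving out fl/fl EBd2 lot 1 or lot 12. Without fl/fl ES-cell lot 2 the calls of Hist1h4n, H1f3, H2aw and H2ac6 were lost as well, and without lot 1 those of H1f3, H2aw and H2ac6.

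The stage difference of Hist1h2ap in fl/fl had no fixed direction. Its 257 and 441 CPM in fl/fl EBd2 lay on either side of the 284 and 298 CPM in fl/fl ES cells, with a log2 fold change of 0.27 ± 0.163 (edgeR adjusted p = 0.17). Without fl/fl EBd2 lot 12 it was -0.19 (edgeR adjusted p = 0.033), and without lot 1 it was 0.60 (edgeR adjusted p = 1.18e-05). In KO, by contrast, all of its EBd2 values were below its ES-cell values, with 60.55 and 69.7 CPM in KO EBd2 and 219.9 and 209 CPM in KO ES cells (log2 fold change -1.72 ± 0.198, edgeR adjusted p = 1.44e-05).

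In KO, 1 of 45 cluster genes was called higher and 13 lower in EBd2, and of all genes 64.8% were called, 31.7% higher and 33.1% lower. The cluster shares, 31.1% called and 28.9% lower, were below these. Under scaling by library size alone, the share of higher calls over all genes was 61.9% in place of 49.0%, and 1 cluster gene was called higher and 6 lower. Of the 14 calls, 3 were kept in every alternative that gave a value: Hist1h2ap, H1f2 (-1.03 ± 0.128) and H2ac11, which had 0 counts in KO EBd2 and 48 in KO ES cells (at least 7.77-fold lower). The others called lower were H1f4, H2ac15, H2aw, H2bc7, H2bc11, H2bc14, H2bc15, H3c3, H3c6 and H4c2, and H4c9 was called higher (0.77 ± 0.257). The count of 14 was 5 without KO ES-cell lot 1, 7 without KO ES-cell lot 12 or either fl/fl ES-cell library, and 9 without KO EBd2 lot 2. H2ac15 lost its call without KO EBd2 lot 1, H2bc7 and H2bc15 without KO EBd2 lot 2, H2bc11 without KO EBd2 lot 1 or KO ES-cell lot 1, and H2bc14 without KO EBd2 lot 2 or either fl/fl EBd2 library. H3c3 lost it without KO EBd2 lot 2 or KO ES-cell lot 12, and H2aw without KO EBd2 lot 2 or either KO ES-cell library. H1f4, H3c6 and H4c2 lost theirs without KO EBd2 lot 2 or either fl/fl ES-cell library. The same held for H1f4 without either KO ES-cell library, for H3c6 without KO EBd2 lot 1 or KO ES-cell lot 12, and for H4c2 without KO EBd2 lot 1 or KO ES-cell lot 1. H4c9, an H4 gene, had 5.09 and 3.13 CPM in KO EBd2, against 2.27 and 2.50 CPM in KO ES cells, and lost its call without KO EBd2 lot 1 or KO ES-cell lot 1. H2bc4 did not pass in any comparison and lay between 6.34 and 8.79 CPM in all libraries.

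Between stages, 3 of 11 variant genes were called higher in fl/fl EBd2 than in fl/fl ES cells and 4 lower. These shares, 27.3% and 36.4%, were near the 28.9% and 30.1% of all genes. H3f3a (0.46 ± 0.0465), H2az1 (0.46 ± 0.0432) and H3f3b (0.28 ± 0.0389) were higher. Macroh2a1 (-0.64 ± 0.0577), H2aj (-0.48 ± 0.0543), H2ax (-0.32 ± 0.0344) and H2az2 (-0.19 ± 0.0651) were lower. The H2az2 call was lost without fl/fl EBd2 lot 12 or fl/fl ES-cell lot 1. In KO, 2 were called higher in EBd2 (18.2%) and 6 lower (54.5%), against 31.7% and 33.1% of all genes. H2aj (0.69 ± 0.0465) and H2az1 (0.21 ± 0.0429) were higher, and Macroh2a1 (-1.09 ± 0.059), Macroh2a2 (-1.03 ± 0.102), H1f0 (-0.93 ± 0.0915), H2ax (-0.77 ± 0.0371), H1f10 (-0.42 ± 0.0841) and H3f3b (-0.33 ± 0.0399) were lower. Under scaling by library size alone, 3 were called higher and 6 lower in KO. H3f3b was thus called higher in EBd2 in fl/fl and lower in EBd2 in KO, and H2aj the other way round.

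The difference between the KO effect in EBd2 and that in ES cells was tested as an interaction. Of all genes, 48% were called, 22.4% with a higher and 25.7% with a lower effect in EBd2, and 46.6% of these calls were higher, or 62.6% under scaling by library size alone. Among variant genes tested, 9 of 11 were called, 1 higher and 8 lower. Among cluster genes tested, 7 of 45 were called, 5 higher and 2 lower. H2aj had the largest value among the variants (1.17 ± 0.0712, edgeR adjusted p = 2.66e-07): its KO libraries were below the fl/fl libraries in ES cells and above them in EBd2. Macroh2a2 had the largest negative one (-1.25 ± 0.137, edgeR adjusted p = 1.91e-05). Hist1h2ap had an interaction of -1.99 ± 0.258 (edgeR adjusted p = 7.1e-05), which was -1.54 without fl/fl EBd2 lot 12 and -2.33 without lot 1. H1f2 had one of 0.84 ± 0.213 (edgeR adjusted p = 0.00667).

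Genes that make, process and destroy cluster messages were described next, from a list of 15, all of them tested. In KO ES cells 3 were called higher and 0 lower, and the share called, 20%, was near the 23.7% of all genes. They were Slbp, whose protein binds the stem-loop (0.19 ± 0.0398), Lsm10, a part of the U7 particle that trims the message (0.33 ± 0.0978), and Ccnf, which encodes the F-box protein cyclin F, known to direct the turnover of SLBP (0.10 ± 0.0306). In KO EBd2 7 were called higher and 6 lower, and their median log2 fold change was 0.0099. That is 86.7% called, against 62.2% of all genes, not compared at equal counts. Slbp had 157 and 156.5 CPM in KO EBd2, against 100.3 and 99.4 CPM in fl/fl EBd2 (log2 fold change 0.65 ± 0.0482, edgeR adjusted p = 3.55e-07), and both KO libraries were above both fl/fl libraries.

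Zfp473, which takes part in trimming the message (1.18 ± 0.0636), Ccnf (0.67 ± 0.034), the cap-binding subunit Ncbp2 (0.58 ± 0.0581) and Npat, the activator of cluster transcription (0.44 ± 0.0581), were also higher in KO EBd2. Cpsf2, a subunit of the cleavage complex (-0.41 ± 0.0481), was lower. Between stages, 5 of these genes were called higher and 6 lower in fl/fl EBd2 than in fl/fl ES cells, and 7 higher and 3 lower in KO EBd2 than in KO ES cells. The shares called were 73.3% in fl/fl and 66.7% in KO, against 59% and 64.8% of all genes. Zfp473 (-0.66 ± 0.0625), Sympk (-0.31 ± 0.0367) and Ccnf (-0.19 ± 0.0335) were lower in fl/fl EBd2, and Cpsf2 (0.44 ± 0.0448) and Ncbp1 (0.33 ± 0.0404) were higher. The interaction was called for 7 of the 15 (46.7%, against 48% of all genes), 5 higher and 2 lower, with Zfp473 at 1.32 ± 0.0804 and Slbp at 0.46 ± 0.0627.

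**Figure D5:**
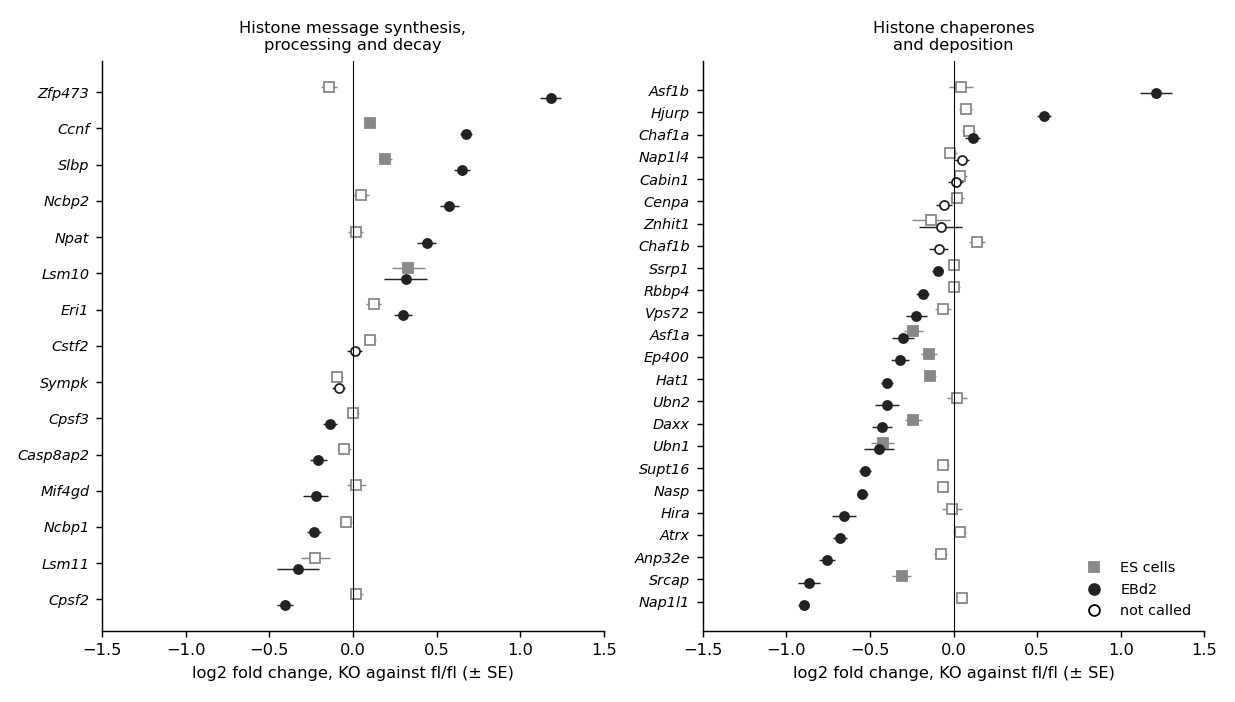
Log2 fold changes of KO against fl/fl with SE for 15 genes of cluster message synthesis, processing and decay (left) and 24 histone chaperone and deposition genes (right), in ES cells (squares) and EBd2 (circles); filled symbols passed the test. In EBd2, 16 of the 24 genes on the right lie at called negative values, and Slbp, Ccnf and Zfp473 at called positive ones.

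Chaperones carry histones to DNA and place them. A list of 24 genes of chaperones and deposition, all tested, also held Cenpa, the gene of centromeric H3 itself. Of these, 0 were called higher and 6 lower in KO ES cells, 25% called against 23.7% of all genes. In KO EBd2 3 were called higher (12.5%) and 16 lower (66.7%), against 30.7% and 31.5% of all genes. The median log2 fold change of the list was -0.31. The shares of this list were not compared at equal counts. Lower in KO EBd2 were Nap1l1, a carrier of H2A and H2B (-0.89 ± 0.0329), Srcap, which exchanges H2A.Z into chromatin (-0.86 ± 0.0664), and Anp32e, which removes it (-0.76 ± 0.0459). Atrx (-0.68 ± 0.0412), Hira (-0.65 ± 0.0705) and Daxx (-0.43 ± 0.0615), which place H3.3, were lower as well, as was Nasp, a carrier of H3 and H4 (-0.55 ± 0.0341). Asf1b, an H3 and H4 carrier of dividing cells, was higher, with 45.4 and 47.1 CPM in KO EBd2, against 18.2 and 21.6 CPM in fl/fl EBd2 (log2 fold change 1.21 ± 0.0956, edgeR adjusted p = 6.22e-07). Hjurp, the carrier of centromeric H3 (0.54 ± 0.0429), and Chaf1a, of replication-coupled assembly (0.12 ± 0.0456, edgeR adjusted p = 0.0451), were higher too. In KO ES cells Srcap (-0.31 ± 0.057), Daxx (-0.24 ± 0.0513), Ubn1, a partner of Hira (-0.42 ± 0.068), Asf1a (-0.24 ± 0.0579) and Hat1, an acetyltransferase of new H4 (-0.14 ± 0.0341), were 5 of the 6 called lower. The largest interaction in the list besides Asf1b (1.17 ± 0.12) was that of Nap1l1, -0.95 ± 0.0457. Between stages, 15 genes of the list were called higher and 5 lower in fl/fl EBd2 than in fl/fl ES cells. In KO EBd2 8 were called higher and 9 lower than in KO ES cells. Cenpa was among those called lower in both genotypes (-0.45 ± 0.0457 in fl/fl and -0.53 ± 0.0442 in KO). In fl/fl 62.5% were thus higher, against 28.9% of all genes, and in KO 33.3% were, against 31.7%.

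Other measures moved with these groups. A list of 20 polyadenylated genes of G1/S and S phase summed to 4092 and 4021 CPM in KO EBd2, against 4434 and 4412 CPM in fl/fl EBd2, and to 4412 and 4384 CPM in KO ES cells, against 4443 and 4505 CPM in fl/fl ES cells. Of these genes 10 were called higher and 9 lower in KO EBd2, and 10 higher and 7 lower in KO ES cells. That is 95% called in EBd2 and 85.0% in ES cells, against 62.2% and 23.7% of all genes, not compared at equal counts. Examples, chosen after their values were seen, were Ccne2 (2.15 ± 0.074 in EBd2), a cyclin of S phase entry, and Mcm2 (-1.20 ± 0.0398 in EBd2), a helicase subunit. In EBd2, the 3 endoderm markers summed to 139.8 and 143 CPM in KO and to 32.0 and 33.9 CPM in fl/fl, the 2 primitive streak markers to 80.9 and 87.8 CPM in KO and 2.43 and 2.77 CPM in fl/fl, and the 5 feeder markers to 151 and 134 CPM in KO and 39.4 and 43.5 CPM in fl/fl. None of these markers was at 0 in a group. Of the feeder markers, Col1a1, Col1a2, Col3a1 and Postn were called higher in KO EBd2. Thy1, at a log2 fold change of -0.03, was not called, so the feeder sum mixes unlike genes. The part of all these markers in the histone values was not tested.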

How the data were processed

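Poly(A)-selected RNA was counted in 8 libraries, 2 in each of 4 groups. Raw counts of reads per gene symbol are what the deposited table holds, with no normalisation by the authors, as its values show. Of tools and builds, the submitters' processing notes name Trim Galore 0.6.7, GRCm38 and mm10; the sources used here name no aligner, counter, annotation or strand setting. The count table was fitted whole with edgeR 4.0.16 in R 4.3.3 (filterByExpr, 16542 genes; TMM factors; 4 group means; quasi-likelihood test, two-sided, Benjamini-Hochberg). SE was taken as |log2 fold change| over the root of the F statistic. The biological coefficient of variation was 3.4%. The fit was tested on simulated data.

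The members and lists were chosen with earlier results of these data known. Named were variants with at least 1 CPM in a group, cluster genes called in any comparison or among the 2 highest of their class, and from each pathway list up to 5 genes of smallest p and a few fixed ones. A list of 16 non-polyadenylated RNAs matched 0 rows and is not analysed here. Transcripts came from GENCODE and promoters from RefSeq. Alternatives were RLE factors, library size only, other filters, DESeq2 1.42.0, thinning to 7858452 counts, lots as a block, the 4 libraries of a comparison, and leaving out each library.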

Additional observations from a re-analysis of the deposited data

Results flagged for a closer look

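For 16 of 56 histone genes tested (28.6%), the KO effect in EBd2 differed from that in ES cells, against 48% of all genes. The calls are of the interaction term of the edgeR quasi-likelihood test, on the log2 scale with KO against fl/fl on top. They took in 81.8% of the variant and 15.6% of the cluster genes tested, shares not compared at equal counts. Among variants the differences were 1.17 (H2aj), -0.60 (H3f3b), -1.25 (Macroh2a2), -0.44 (H2ax), -0.94 (H1f0), -0.45 (H3f3a), -0.45 (Macroh2a1), -0.60 (H1f10) and -0.26 (H2az1). For H2aj the KO effect had opposite signs at the 2 stages, while for the other 8 it was more negative in EBd2. The H1f10 call was lost in the model with lots, and the H2az1 call under scaling by library size alone.

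Among cluster genes the differences were -1.99 (Hist1h2ap), 0.84 (H1f2), 2.11 (H2bc21), 3.33 (H3c14), 6.88 (H4c12), 9.87 (H2ac19) and -7.09 (H2ac11). H4c12, H2ac19 and H2ac11 had 0 counts in 1 EBd2 group, so their fitted values depend on the prior count. H3c14 had 3 counts in fl/fl EBd2. H2ac19 shares all its 50-base stretches with other genes, and its sum with H2ac18 had ratios of KO to fl/fl means of 1.56 in EBd2 and 0.532 in ES cells. The H2bc21 call was lost without KO EBd2 lot 2, fl/fl EBd2 lot 1 or fl/fl ES-cell lot 1.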

How the results depend on the processing

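Counts of variant genes called stayed within 1.5 times under every alternative. Counts of cluster genes did not. For KO against fl/fl in ES cells the count of 10 was 21 with no filter, 1 by DESeq2 (which gave 5 cluster genes an adjusted p), 2 after thinning, 20 in a fit of the 4 libraries of the comparison, and 2 to 16 with 1 library left out. For KO against fl/fl in EBd2 the count of 21 was 11 in the 4-library fit, of 16 genes then tested. For EBd2 against ES cells in fl/fl the count of 10 was 6 to 12 with 1 library left out. For EBd2 against ES cells in KO the count of 14 was 7 with library size only, 5 by DESeq2, 7 after thinning, 6 in the 4-library fit, and 5 to 14 with 1 library left out. For the interaction the count of 7 was 13 with no filter. The cause was not tested, beyond the changed number of genes or libraries that each setting brings.

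Compared genotypes share only lot 1 at each stage, and lot deviations correlated at -0.0203 to 0.0585 across genes between groups. Counting noise enters these values, so they cannot show whether lots of the same number were handled together. With lots as a replicate block, cluster genes called were 3 in ES cells (1 higher and 2 lower), 16 in EBd2 and 10 between stages in KO.

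Log2 values that turned sign were all of genes not called, apart from H3c11. With the replicate block they were 0.0221 for H2az1 in KO ES cells, 0.117 for H3f3c between stages in fl/fl, -0.0168 for H3f3a between stages in KO and -0.458 for the H3f3c interaction. With library size only they were 0.0404 for H2az1 in KO ES cells, and 0.0027 for H2az2 and 0.0361 for H3f3c between stages in KO. H1f0 between stages in fl/fl was -0.0005 with RLE factors, -0.0202 with no filter and -0.003 by DESeq2, and H3f3a between stages in KO was -0.0252 with no filter. With 1 library left out, values between stages in fl/fl ran from -0.0536 to 0.064 for H1f0, -0.313 to 0.082 for H3f3c and -0.187 to 0.60 for Hist1h2ap. Those between stages in KO ran from -0.0417 to 0.0548 for H3f3a and -0.227 to 0.0027 for H3f3c. In KO against fl/fl they ran from -0.0776 to 0.0244 for H2az1 in ES cells, and from -0.028 to 0.202 for H2az2 and -7.47 to 3.75 for H3c11 in EBd2. The interaction ran from -0.0722 to 0.158 for H2az2 and -0.201 to 0.197 for H3f3c.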
